A study of Mus musculus with 12 samples.

Results

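The 10 genes described here encode the postsynaptic machinery of the neuromuscular junction, the synapse at which a motor axon commands a muscle fiber. They are the subunits of the muscle acetylcholine receptor (*Chrna1*, *Chrnb1*, *Chrnd*, *Chrne* and *Chrng*), the receptor complex that responds to nerve-derived agrin and its adaptors (*Lrp4*, *Musk*, *Dok7* and *Rapsn*), and the collagen tail of synaptic acetylcholinesterase (*Colq*). They were chosen by gene symbol, and all 10 were measured, each by 1 probe set with a single gene symbol, out of 19938 genes. Expression was measured on 12 mouse Gene 1.0 ST arrays, with 3 arrays labelled as biological replicates for each of 4 groups: diaphragm of *Cox6a2* -/- (KO) mice, diaphragm of WT mice, gastrocnemius of KO mice and gastrocnemius of WT mice. All mice were males of the C57Bl6 strain aged 10 to 12 weeks. KO mice carry a global deletion of *Cox6a2*, which encodes a subunit of respiratory chain complex IV found in striated muscle. WT mice were bought C57BL/6J animals matched for age and sex, and littermate controls were not described. The deposited values are log2 signals, so that a difference of 1 is a doubling of signal. In whole muscle, fewer synapses or cells of a type and less RNA in each cannot be told apart.

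In the adult junction, acetylcholine opens a pentameric receptor made of a pair of alpha subunits with a beta, a delta and an epsilon subunit; the gamma subunit takes the place of epsilon before birth and returns after denervation. Agrin released by the nerve binds LRP4, which activates the receptor tyrosine kinase MuSK; DOK7 sustains the activity of the kinase and rapsyn clusters the receptors. Transcription of these genes in muscle is driven by myogenic factors that bind E-boxes, and in nuclei beneath the synapse by Ets factors that bind N-boxes.

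The labels were first checked. *Cox6a2* had log2 signals of 6.71 to 7.18 on the 6 KO arrays, against 11.65 to 12.06 on the 6 WT arrays. *Hoxc10*, which marks hindlimb position, lay at 3.82 to 4.53 in KO diaphragm and at 8.62 to 8.75 on the arrays labelled WT diaphragm, with 8.44 to 8.63 in KO gastrocnemius and 8.36 to 8.55 in WT gastrocnemius. The mean signal of 8 mesothelial markers, of the cell layer that lines the diaphragm, was 7.72 to 8.55 in KO diaphragm and 5.08 to 5.19 on the arrays labelled WT diaphragm, against 4.99 to 5.31 in gastrocnemius, and *Myh4*, the myosin of IIB fibers, was at 8.74 to 9.15 in KO diaphragm and at 13.50 to 13.69 on the other 9 arrays. The arrays labelled WT diaphragm therefore carried hindlimb genes and lacked the markers of diaphragm, and are called by their label throughout. In a comparison of KO diaphragm with them, the knockout and the muscle of origin cannot be told apart. Such results are given beside KO diaphragm against KO gastrocnemius, in which both sides are KO. No WT array enters this difference itself, but the spread used to test it is estimated from all 12 arrays. These comparisons share the KO diaphragm arrays.

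*Colq*, *Chrnd* and *Lrp4* were higher and *Musk* and *Chrne* were lower in KO diaphragm when set against the arrays labelled WT diaphragm, by 1.45-fold to 2.09-fold upwards and to 0.605 and 0.363 of the level downwards. The other members, *Chrna1*, *Chrnb1*, *Chrng*, *Dok7* and *Rapsn*, did not pass the test. Thus 3 of 10 members were called higher, where 16.3% of all genes were, and 2 of 10 were called lower, where 11.2% of all genes were (limma, Benjamini-Hochberg adjusted p under 0.05 over all genes). Against KO gastrocnemius, 3 of 10 members were called higher in KO diaphragm, where 17.7% of all genes were, and 2 of 10 were called lower, where 11.2% of all genes were; the called genes were again *Colq*, *Chrnd*, *Lrp4*, *Musk* and *Chrne*. The median size of a member's difference, without regard to sign, was 0.37 on the log2 scale against the arrays labelled WT diaphragm, where the median over all genes was 0.19, and 0.40 against KO gastrocnemius, where it was 0.18.

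**Figure D1:**
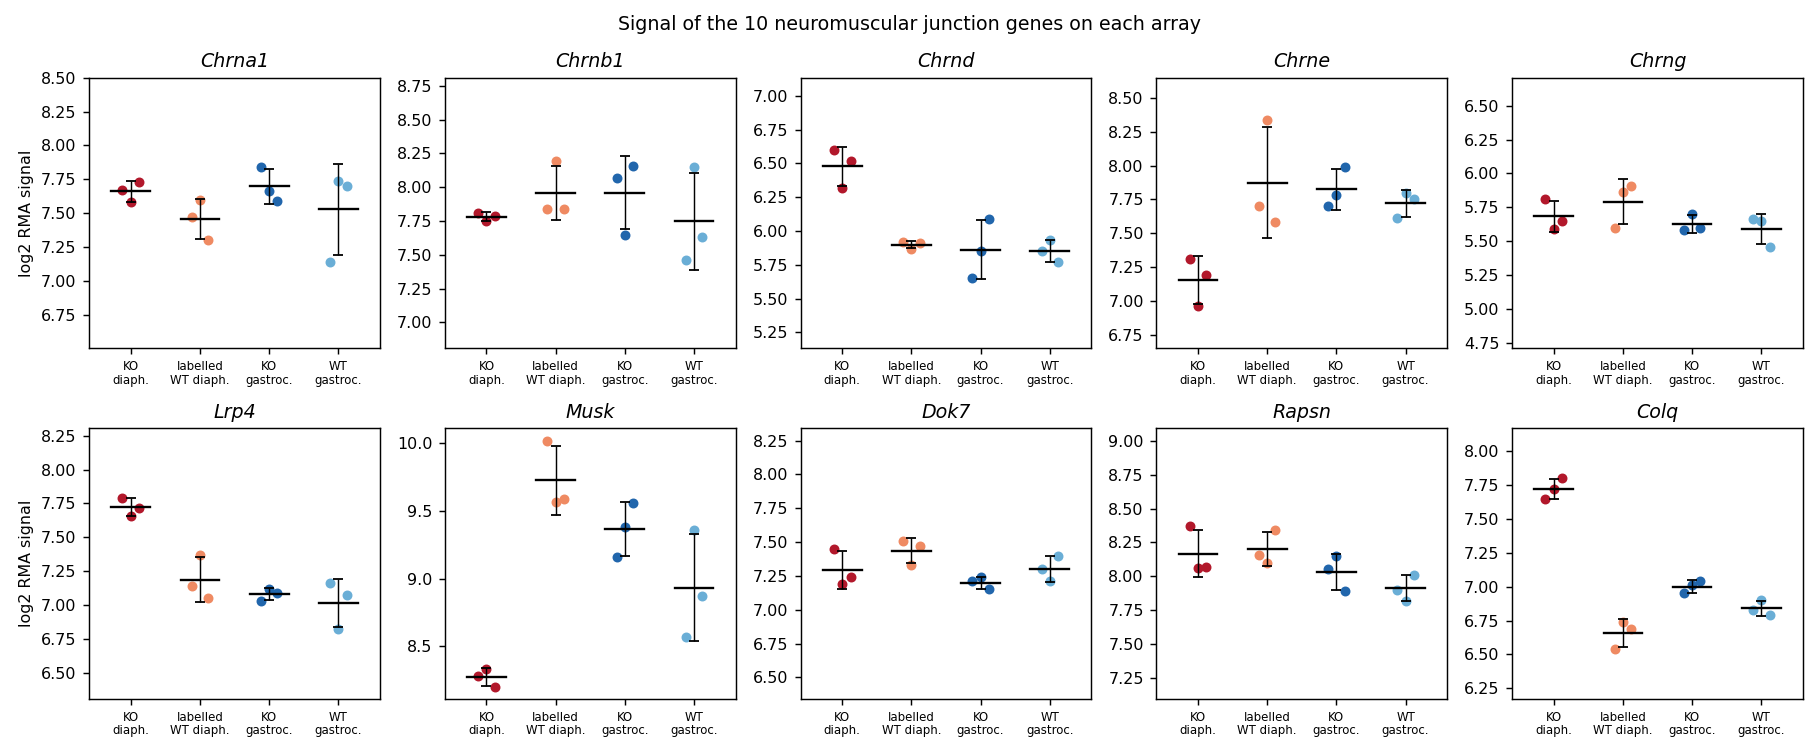
Log2 RMA signal (vertical axes, each spanning at least 2 units) of the 10 neuromuscular junction genes on the 3 arrays of each group (horizontal axes); each point is 1 array, and the line and bars give the group mean and SD. The KO diaphragm arrays stand above all others for *Colq*, *Chrnd* and *Lrp4* and below all others for *Musk* and *Chrne*.

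*Musk*, the kinase that starts receptor clustering, had the widest span of group means among the members, 1.46 on the log2 scale. Its log2 signals were 8.28, 8.33 and 8.20 in KO diaphragm, against 10.02, 9.57 and 9.59 on the arrays labelled WT diaphragm. In gastrocnemius they were 9.16, 9.38 and 9.56 in KO mice, against 8.57, 9.36 and 8.87 in WT mice. The 3 KO diaphragm arrays lay below the other 9. *Musk* was lower in KO diaphragm by a log2 difference of -1.46 against the arrays labelled WT diaphragm (SE 0.18, 95% interval -1.84 to -1.09; limma, adjusted p = 2.7e-05) and of -1.10 against KO gastrocnemius (SE 0.18, adjusted p = 2.8e-04). By group mean the order was the arrays labelled WT diaphragm (9.73), KO gastrocnemius (9.37), WT gastrocnemius (8.93) and KO diaphragm (8.27). In this order only the KO and WT gastrocnemius arrays overlapped among neighbours, and the highest KO gastrocnemius array (9.56) lay just under the lowest of those labelled WT diaphragm (9.57).

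*Chrne* encodes the epsilon subunit of the adult receptor. It had log2 signals of 7.31, 6.96 and 7.19 in KO diaphragm, against 7.70, 8.34 and 7.58 on the arrays labelled WT diaphragm. In gastrocnemius it was at 7.70, 7.78 and 7.99 in KO mice, against 7.61, 7.80 and 7.75 in WT mice. Again the 3 KO diaphragm arrays were the lowest of the 12, while the other 3 groups overlapped one another. The log2 difference was -0.72 against the arrays labelled WT diaphragm (SE 0.16, 95% interval -1.07 to -0.37; limma, adjusted p = 0.0042) and -0.67 against KO gastrocnemius (SE 0.16, adjusted p = 0.0063). The methods' t-test with adjustment over all genes did not call the first of these (adjusted p = 0.15). The annotation places *Chrne* over another gene, 4930544D05Rik, as it does *Chrna1* over Gm30940 and *Rapsn* over Gm13778, and whether their probes also match these genes was not analysed here.

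*Chrnd*, the delta subunit of both the fetal and the adult receptor, went the other way. Its log2 signals were 6.60, 6.32 and 6.52 in KO diaphragm, against 5.92, 5.87 and 5.91 on the arrays labelled WT diaphragm. In gastrocnemius they were 5.65, 5.85 and 6.09 in KO mice, against 5.85, 5.93 and 5.77 in WT mice. The 3 KO diaphragm arrays were the highest of the 12, and the other 3 groups overlapped. The log2 difference was 0.58 against the arrays labelled WT diaphragm (SE 0.11, 95% interval 0.34 to 0.82; limma, adjusted p = 0.0014) and 0.62 against KO gastrocnemius (SE 0.11, adjusted p = 8.1e-04). The adjusted methods' t-test did not call the second of these (adjusted p = 0.070). *Chrng*, which encodes the gamma subunit of the fetal receptor and is the direct neighbour of *Chrnd* on chromosome 1 with 0 genes between them, had log2 signals of 5.81, 5.59 and 5.65 in KO diaphragm, against 5.60, 5.86 and 5.91 on the arrays labelled WT diaphragm. These arrays overlapped, with a log2 difference of -0.11 (95% interval -0.33 to 0.11), and against KO gastrocnemius it was 0.06 (95% interval -0.16 to 0.28). *Chrnd* and *Chrng* both had a mean signal under the median of all genes.

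The alpha and beta subunits, which both receptor forms share, were not called in any comparison. *Chrna1* had log2 signals of 7.67, 7.58 and 7.73 in KO diaphragm, against 7.47, 7.60 and 7.30 on the arrays labelled WT diaphragm. In gastrocnemius it was at 7.84, 7.66 and 7.59 in KO mice, against 7.14, 7.74 and 7.70 in WT mice, so that all 4 groups overlapped. Its log2 difference was 0.21 against the arrays labelled WT diaphragm (95% interval -0.10 to 0.51) and -0.04 against KO gastrocnemius (95% interval -0.34 to 0.27). *Chrnb1* was at 7.81, 7.75 and 7.79 in KO diaphragm, against 7.84, 8.19 and 7.84 on the arrays labelled WT diaphragm. The KO diaphragm arrays lay wholly below these, but the difference of -0.17 did not pass the test (limma, 95% interval -0.53 to 0.19, adjusted p = 0.47). They lay within the range of both gastrocnemius groups. Against KO gastrocnemius the difference of *Chrnb1* was -0.18 (95% interval -0.54 to 0.18). The 4 subunits of the adult receptor thus differed in direction: *Chrnd* rose, *Chrne* fell, and *Chrna1* and *Chrnb1* were not called.

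*Lrp4*, the agrin receptor, had log2 signals of 7.79, 7.66 and 7.72 in KO diaphragm, against 7.14, 7.37 and 7.05 on the arrays labelled WT diaphragm. In gastrocnemius it was at 7.03, 7.12 and 7.09 in KO mice, against 7.16, 6.82 and 7.07 in WT mice. The KO diaphragm arrays were the highest of the 12, and the other 3 groups overlapped. The log2 difference was 0.54 against the arrays labelled WT diaphragm (SE 0.11, 95% interval 0.31 to 0.77; limma, adjusted p = 0.0016) and 0.65 against KO gastrocnemius (SE 0.11, adjusted p = 3.7e-04). The adjusted methods' t-test did not call the first of these (adjusted p = 0.055). LRP4 and MuSK are partners in one receptor complex, and their genes moved in opposite directions in both comparisons.

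The adaptors downstream of MuSK were not called. *Dok7* had log2 signals of 7.45, 7.19 and 7.24 in KO diaphragm, against 7.51, 7.33 and 7.47 on the arrays labelled WT diaphragm, with a difference of -0.15 (95% interval -0.35 to 0.06). *Rapsn* was at 8.37, 8.06 and 8.07 in KO diaphragm, against 8.16, 8.10 and 8.34 on the arrays labelled WT diaphragm, with a difference of -0.03 (95% interval -0.27 to 0.20). Both pairs of groups overlapped. Against KO gastrocnemius the differences were 0.09 for *Dok7* (95% interval -0.11 to 0.30) and 0.14 for *Rapsn* (95% interval -0.10 to 0.37).

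*Colq* encodes the collagen strand that anchors acetylcholinesterase in the synaptic basal lamina. Its log2 signals were 7.65, 7.72 and 7.80 in KO diaphragm, against 6.54, 6.74 and 6.69 on the arrays labelled WT diaphragm. In gastrocnemius they were 6.95, 7.01 and 7.04 in KO mice, against 6.83, 6.90 and 6.79 in WT mice. No groups overlapped, and the order was KO diaphragm, KO gastrocnemius, WT gastrocnemius and the arrays labelled WT diaphragm. *Colq* was higher in KO diaphragm by 1.07 against the arrays labelled WT diaphragm (SE 0.087, 95% interval 0.88 to 1.25; limma, adjusted p = 8.7e-07) and by 0.72 against KO gastrocnemius (SE 0.087, adjusted p = 2.7e-05). Among neighbours in that order, the test was not passed between KO and WT gastrocnemius (0.16, adjusted p = 0.37) or between the arrays labelled WT diaphragm and WT gastrocnemius (-0.18, adjusted p = 0.40).

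**Figure D2:**
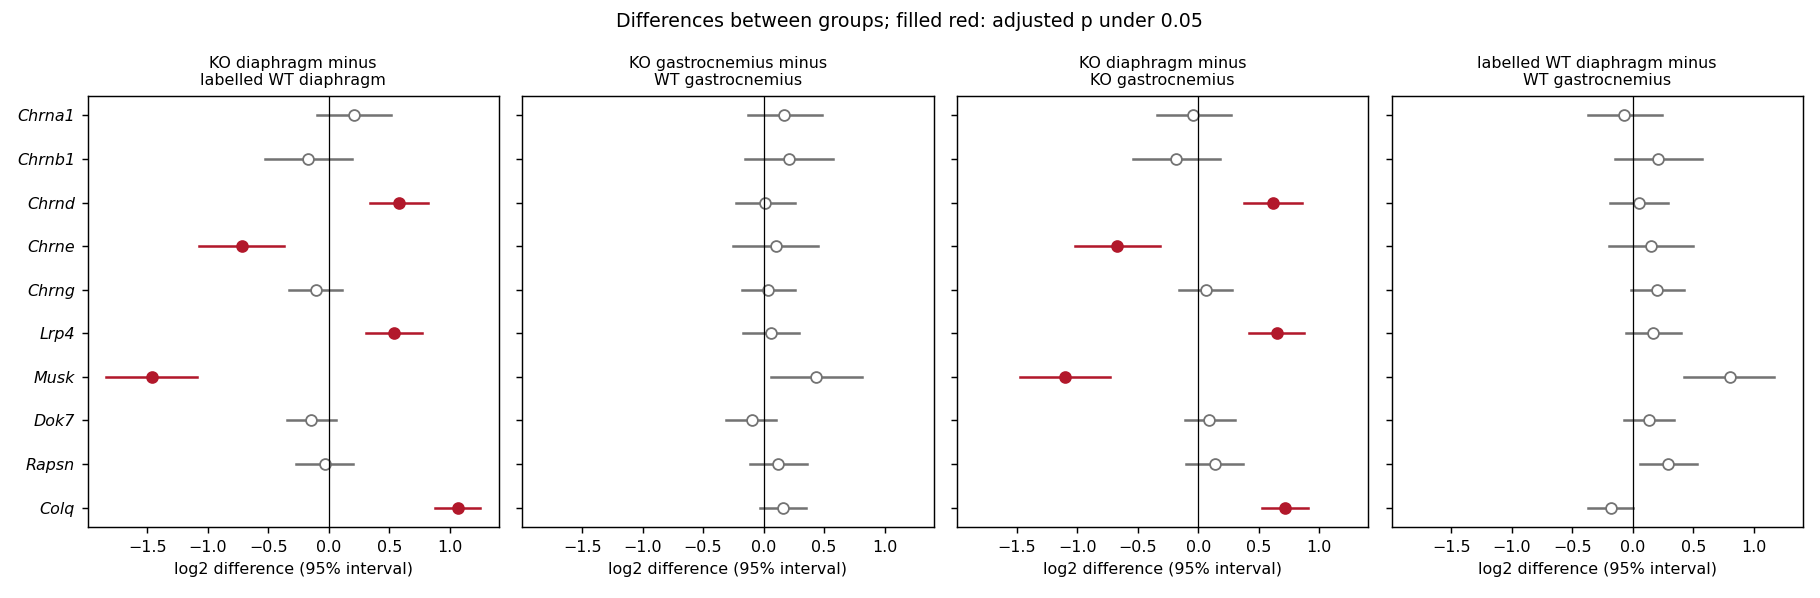
Log2 differences (horizontal axes) of the 10 genes (rows) in 4 comparisons (panels), with 95% intervals from limma; filled red points have an adjusted p under 0.05 and open grey points do not. *Chrnd*, *Chrne*, *Lrp4*, *Musk* and *Colq* are called in both panels that contain KO diaphragm, whose arrays these panels share, and 0 genes are called in the other panels.

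The arrays of KO diaphragm and of those labelled WT diaphragm did not overlap for 6 of 10 members (3 above and 3 below), where this held for 43.1% of all genes. KO diaphragm and KO gastrocnemius did not overlap for 5 of 10 members, where this held for 44.8% of all genes. With 3 arrays against 3, an exact permutation test cannot give a two-sided p under 0.1, so that calls rest on the limma model, in which all genes share in the estimate of the spread.

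In gastrocnemius, where the arrays of both genotypes carried hindlimb genes, 0 of 10 members were called in KO against WT mice (limma), where 0.592% of all genes were, and 1 member passed an unadjusted p of 0.05. This was *Musk*, with a log2 difference of 0.43 (95% interval 0.06 to 0.81; limma, adjusted p = 0.24) and overlapping arrays. For the other members the differences ran from -0.10 for *Dok7* to 0.21 for *Chrnb1*, and among all 10 the median size of a difference was 0.11, against 0.12 over all genes. Here and below, the share of all genes that passed an unadjusted p of 0.05 was not counted. The arrays did not overlap for 1 of 10 members, *Colq*, where this held for 23.2% of all genes. The intervals limit how large a change could have been missed: for *Chrne* the log2 difference of 0.10 had a 95% interval of -0.25 to 0.45, and for *Chrnd* the difference of 0.01 had one of -0.23 to 0.26.

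The arrays labelled WT diaphragm were then set against WT gastrocnemius. Here 0 of 10 members were called (limma), where 0.461% of all genes were, and 2 members passed an unadjusted p of 0.05. These were *Musk*, with a difference of 0.80 (95% interval 0.42 to 1.17; limma, adjusted p = 0.067), and *Rapsn*, with a difference of 0.29 (adjusted p = 0.28). The arrays did not overlap for 3 of 10 members, *Musk* and *Rapsn* above and *Colq* below, where this held for 16.8% of all genes. Without WT gastrocnemius replicate 2, whose *Musk* signal of 9.36 was the highest of its group, the difference of *Musk* was 1.01 (limma, adjusted p = 0.019).

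The difference between the KO effect by label in diaphragm and the KO effect in gastrocnemius was tested as an interaction. It was called positive for 3 of 10 members, where 8.76% of all genes were, and negative for 2 of 10, where 6.07% of all genes were. *Musk* had the largest value among the members, -1.90 (SE 0.25; limma, adjusted p = 1.6e-04), followed by *Colq* at 0.91 (SE 0.12, adjusted p = 2.2e-04). *Chrne* was at -0.83 (adjusted p = 0.026), *Chrnd* at 0.57 (adjusted p = 0.027) and *Lrp4* at 0.48 (adjusted p = 0.047). The calls of *Chrnd* and *Lrp4* were lost after median centring and after quantile normalization, and also when 1 array was left out, for any of 6 arrays with *Chrnd* and any of 10 with *Lrp4*. *Lrp4* also lost its call with the replicate number as a fixed block (adjusted p = 0.070) or a random one (adjusted p = 0.051). That of *Chrne* was lost without WT gastrocnemius replicate 1, KO diaphragm replicate 2 or KO gastrocnemius replicate 3.

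To show the sequence before the starts of genes that fell and of genes that were not called, the 250 bases upstream of the RefSeq start (GRCm38.p6) are printed for *Chrne* and *Musk*, both lower in KO diaphragm, and for *Chrna1* and *Chrng*, both not called. Sequences run 5′ to 3′ on the strand of the gene. Capitals mark E-boxes (CANNTG) and the N-box (CCGGAA), each searched on both strands; CAGCTG is 1 form of CANNTG and is counted within it.
Chrne, chr11:70619195-70619444, minus strand: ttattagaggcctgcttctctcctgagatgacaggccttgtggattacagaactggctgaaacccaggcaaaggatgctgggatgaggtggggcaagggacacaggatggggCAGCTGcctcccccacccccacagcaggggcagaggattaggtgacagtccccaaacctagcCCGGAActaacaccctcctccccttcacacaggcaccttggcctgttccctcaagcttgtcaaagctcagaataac
Musk, chr4:58285712-58285961, plus strand: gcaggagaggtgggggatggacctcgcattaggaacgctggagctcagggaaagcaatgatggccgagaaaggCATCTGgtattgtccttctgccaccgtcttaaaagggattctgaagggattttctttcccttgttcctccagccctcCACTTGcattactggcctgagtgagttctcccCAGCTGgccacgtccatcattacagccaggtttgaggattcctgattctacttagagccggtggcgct
Chrna1, chr2:73580339-73580588, minus strand: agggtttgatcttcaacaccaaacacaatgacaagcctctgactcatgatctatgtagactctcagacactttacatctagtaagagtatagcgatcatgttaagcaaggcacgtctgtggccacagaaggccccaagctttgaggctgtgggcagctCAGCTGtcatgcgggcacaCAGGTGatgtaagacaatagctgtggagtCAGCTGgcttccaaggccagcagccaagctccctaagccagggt
Chrng, chr1:87205561-87205810, plus strand: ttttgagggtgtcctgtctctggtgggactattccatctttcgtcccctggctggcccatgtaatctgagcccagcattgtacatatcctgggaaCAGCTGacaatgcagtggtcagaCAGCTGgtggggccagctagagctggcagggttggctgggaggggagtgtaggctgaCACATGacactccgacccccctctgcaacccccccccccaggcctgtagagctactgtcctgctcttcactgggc
*Chrne* had 1 E-box at -138 and 1 N-box at -76, counted in bases from the start to the first base of the match. *Musk* had 3 E-boxes, at -177, -100 and -68. *Chrna1* had 3, at -92, -73 and -44, and *Chrng* had 3, at -155, -132 and -75. Windows were at hand for 6 of the 10 members, with 2 starts for *Dok7*, which makes 7 windows, and CCGGAA occurred in that of *Chrne* alone. Over 32851 upstream windows of the same length, 66.2% held CANNTG at least once and 12.2% held it 3 times or more, 13.0% held CAGCTG, the form in 4 of the 7 member windows, and 12.0% held CCGGAA. The genes with 3 E-boxes thus included *Musk*, which fell, and *Chrna1*, *Chrnb1* and *Chrng*, which were not called.

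**Figure D3:**
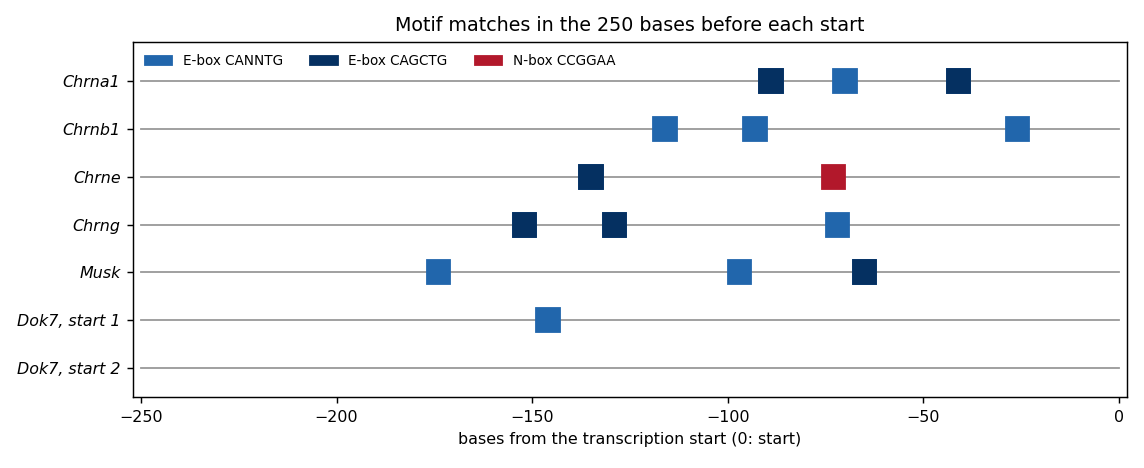
Positions of E-box (light blue), CAGCTG (dark blue) and N-box (red) matches in the 250 bases before each RefSeq start (horizontal axis, bases from the start) for the 7 windows of 6 members (rows). The N-box lies in the *Chrne* window at -76 and start 2 of *Dok7* has no match.

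The myogenic factors that bind E-boxes were measured on the same arrays. Against the arrays labelled WT diaphragm, 3 of 4 were called lower in KO diaphragm and 0 higher, with a median difference of -0.95 where the median over all genes was -0.04. Against KO gastrocnemius 1 of 4 was called lower, with a median of -0.25 where that over all genes was 0.02. In each of these comparisons 11.2% of all genes were called lower. *Myf6*, the factor of mature fibers, was at 9.26, 8.98 and 9.44 in KO diaphragm, against 10.55, 10.56 and 10.36 on the arrays labelled WT diaphragm, and the KO diaphragm arrays also lay below the gastrocnemius arrays of KO mice (10.06, 10.20 and 10.28). Its log2 difference was -1.26 against the arrays labelled WT diaphragm (limma, adjusted p = 8.4e-06) and -0.95 against KO gastrocnemius (adjusted p = 8.6e-05). *Myod1* was at 8.23, 7.92 and 8.19 in KO diaphragm, against 9.22, 9.51 and 8.96 on the arrays labelled WT diaphragm, and fell by 1.12 (adjusted p = 2.6e-05). Against KO gastrocnemius (8.21, 8.33 and 8.33) its difference was -0.18 (adjusted p = 0.35). In KO against WT gastrocnemius (8.89, 9.01 and 8.71 in WT mice) the arrays did not overlap, with a difference of -0.58 (adjusted p = 0.068). *Myog*, which rises after denervation, fell by 0.79 against the arrays labelled WT diaphragm (adjusted p = 8.8e-04) and was at -0.33 against KO gastrocnemius (adjusted p = 0.10). The arrays labelled WT diaphragm had more *Myog* than WT gastrocnemius, by 0.73 (adjusted p = 0.041). Ets factors, counted among the further synapse genes below, went both ways against the arrays labelled WT diaphragm. *Gabpa* was at 0.43 (limma, adjusted p = 0.024), *Etv4* at -0.49 (adjusted p = 0.0026) and *Etv5* at -0.01 (adjusted p = 0.93). Against KO gastrocnemius they were at 0.21, -0.07 and 0.14 and were not called (adjusted p = 0.27, 0.69 and 0.28).

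**Figure D4:**
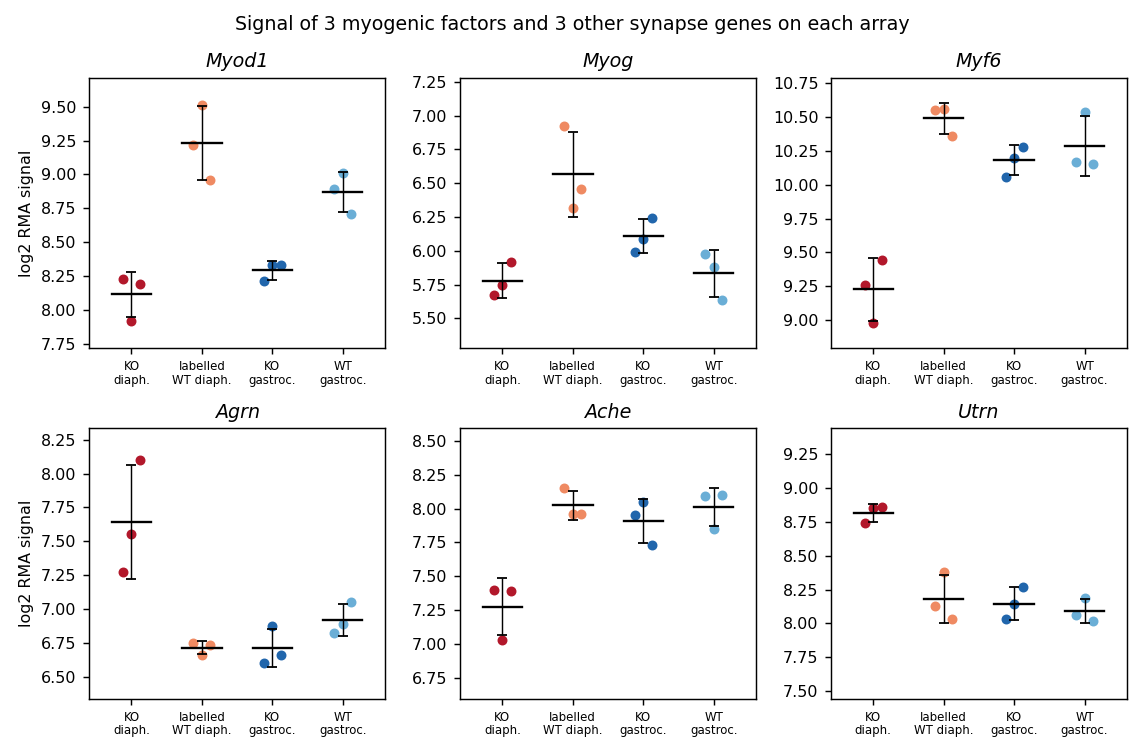
Log2 RMA signal (vertical axes) of *Myod1*, *Myog*, *Myf6*, *Agrn*, *Ache* and *Utrn* on the 3 arrays of each group (horizontal axes); each point is 1 array, and the line and bars give the group mean and SD. The KO diaphragm arrays stand below all others for *Myf6* and *Ache* and above all others for *Agrn* and *Utrn*.

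Of 33 further genes of the synapse, which act in nerve-derived signalling, basal lamina, dystroglycan complex and nuclear anchoring, 31 were measured. In KO diaphragm 10 were higher and 5 lower against the arrays labelled WT diaphragm, with a median difference of -0.01, and 9 were higher and 4 lower than in KO gastrocnemius, with a median of 0.08. Over all genes 16.3% were higher and 11.2% lower in the first of these comparisons, and 17.7% and 11.2% in the second. *Agrn*, the ligand of LRP4, had log2 signals of 7.27, 7.55 and 8.10 in KO diaphragm, against 6.75, 6.66 and 6.73 on the arrays labelled WT diaphragm. In KO gastrocnemius it was at 6.60, 6.87 and 6.66, so that the KO diaphragm arrays overlapped neither group. Its log2 difference was 0.93 in both comparisons (limma, adjusted p = 5.9e-04 and 5.1e-04). A single probe set on whole muscle does not show which cells made this RNA or which of its forms was measured. *Ache*, the acetylcholinesterase that ColQ anchors, was at 7.40, 7.03 and 7.39 in KO diaphragm, against 8.15, 7.96 and 7.96 on the arrays labelled WT diaphragm. It fell by 0.75 there (adjusted p = 3.7e-04) and by 0.64 against KO gastrocnemius (adjusted p = 0.0013), opposite in direction to *Colq*.

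Among genes of the synaptic basal lamina, *Nid2*, which encodes nidogen-2, was at 7.51, 7.68 and 8.02 in KO diaphragm, against 6.59, 6.72 and 6.74 on the arrays labelled WT diaphragm. It rose by 1.05 there (limma, adjusted p = 1.5e-05) and by 0.82 against KO gastrocnemius (adjusted p = 1.2e-04). Other genes of this group were not called against the arrays labelled WT diaphragm: the laminin chains *Lama5* (-0.22, adjusted p = 0.094) and *Lamb2* (-0.12, adjusted p = 0.36), and the collagen *Col13a1* (-0.28, adjusted p = 0.068). Against KO gastrocnemius *Lama5*, *Lamb2* and *Col13a1* were at -0.09, 0.10 and -0.23 and were not called (limma, adjusted p = 0.54, 0.45 and 0.13). *Lama4*, another laminin chain, rose by 0.84 against the arrays labelled WT diaphragm and by 0.78 against KO gastrocnemius (adjusted p = 8.6e-05 and 1.4e-04). Of the dystroglycan complex and its partners, *Utrn*, the utrophin of the junctional membrane, rose by 0.63 and 0.67 in the same comparisons (adjusted p = 4.5e-04 and 2.6e-04) and *Sntb2* rose by 0.66 and 0.48 (adjusted p = 3.2e-04 and 0.0030). *Sntb1*, another syntrophin, was at -0.52 against the arrays labelled WT diaphragm (adjusted p = 0.052) and fell by 0.69 against KO gastrocnemius (adjusted p = 0.011). *Dag1*, which encodes dystroglycan itself, was at -0.07 against the arrays labelled WT diaphragm (adjusted p = 0.57) and fell by 0.38 against KO gastrocnemius (adjusted p = 0.0027). *Macf1*, a cytoskeletal linker, rose by 0.66 and 0.54 (adjusted p = 8.5e-04 and 0.0034). In KO against WT gastrocnemius 0 of the 31 genes were called (limma), where 0.592% of all genes were. At an unadjusted p of 0.05, for which the share of all genes was not counted, 6 of the 31 passed. The interaction was called positive for 7 and negative for 3 of the 31, where 8.76% and 6.07% of all genes were. *Agrn* was at 1.13, *Nid2* at 1.04 and *Sntb1* at -1.01 (limma, adjusted p = 0.0034, 7.4e-04 and 0.018).

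**Figure D5:**
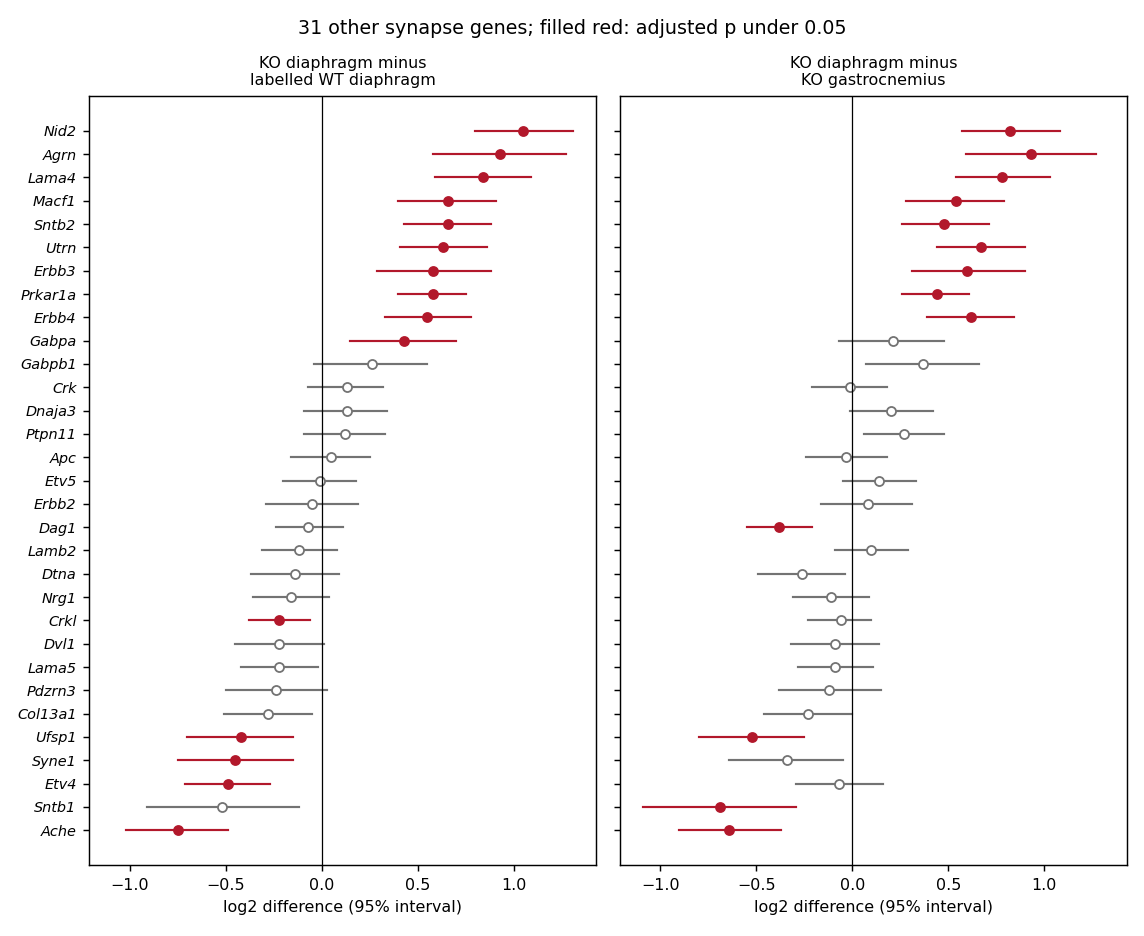
Log2 differences (horizontal axes) of the 31 other synapse genes (rows, ordered by the left panel) in KO diaphragm against the arrays labelled WT diaphragm (left) and against KO gastrocnemius (right), with 95% intervals from limma; filled red points have an adjusted p under 0.05. *Nid2* and *Agrn* lie at the top and *Ache* at the bottom of the order.

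Nicotinic subunits of neurons and other tissues were mostly not called. Of 11 measured, 0 were called against the arrays labelled WT diaphragm (limma; 2 at an unadjusted p of 0.05), and 1 was called higher against KO gastrocnemius, where 17.7% of all genes were; against the arrays labelled WT diaphragm 16.3% of all genes were higher and 11.2% lower. The called gene was *Chrna2*, at 5.76, 5.59 and 5.72 in KO diaphragm, against 4.94, 5.16 and 4.78 in KO gastrocnemius, a difference of 0.73 (adjusted p = 9.8e-04). Against the arrays labelled WT diaphragm its difference was 0.21 (adjusted p = 0.29). In KO against WT gastrocnemius it was -0.39 (limma, adjusted p = 0.19), and the KO arrays lay wholly below the WT arrays. The mean signal of the 11 subunits was 4.89 to 5.11 over the 12 arrays.

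Genes known to respond to loss of the nerve were called in both directions. Of 9 listed, 7 were measured, and in KO diaphragm 1 was higher and 3 were lower against the arrays labelled WT diaphragm, where 16.3% and 11.2% of all genes were, with a median of -0.45. Besides *Myog*, which is also 1 of the 4 myogenic factors above, these were *Runx1* (0.37), *Hdac4* (-0.55) and *Gadd45a* (-0.79). Against KO gastrocnemius 1 was higher and 0 were lower, where 17.7% and 11.2% of all genes were. There *Hdac4* was at -0.15 and *Gadd45a* at -0.56, and neither was called (limma, adjusted p = 0.32 and 0.092). *Runx1*, a transcription factor that rises in denervated muscle, was at 6.88, 7.08 and 6.88 in KO diaphragm, against 6.13, 6.03 and 6.11 in KO gastrocnemius, a rise of 0.85 (limma, adjusted p = 1.4e-05). It was the 1 gene of this list called in KO against WT gastrocnemius, where 0.592% of all genes were called. There it was at 6.13, 6.03 and 6.11 in KO mice, against 6.64, 6.69 and 6.42 in WT mice, a difference of -0.49 (limma, adjusted p = 0.039). The fetal receptor gene *Chrng*, described above, was not called in any comparison.

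Markers of other cells at the synapse were also counted. Of 6 measured Schwann cell markers, 1 (*Cnp*, 0.50) was higher and 0 were lower in KO diaphragm against the arrays labelled WT diaphragm, where 16.3% and 11.2% of all genes were. There 3 passed an unadjusted p of 0.05, *Cnp* and, with negative values, *Mag* (-0.35, adjusted p = 0.074) and *Sox10* (-0.23, adjusted p = 0.077; limma). Against KO gastrocnemius, where 17.7% of all genes were higher and 11.2% lower, 0 markers were called (limma). There 0 markers passed an unadjusted p of 0.05. *Cnp*, *Mag* and *Sox10* were at 0.21, -0.22 and -0.11 there (limma, adjusted p = 0.34, 0.26 and 0.40). The mean signal of the 6 markers was 5.88 to 6.03 in KO diaphragm and 5.90 to 6.07 on the arrays labelled WT diaphragm. It was 5.87 to 6.14 in KO gastrocnemius and 5.95 to 6.20 in WT gastrocnemius, so that all groups overlapped. Of 5 satellite cell markers, *Cdh15* fell in both comparisons (by 0.36 and 0.45), where 11.2% of all genes were lower in each. The other satellite cell markers were not called. Other features of the tissue differed as well: all 8 mesothelial markers were higher in KO diaphragm in both comparisons, and 8 and 9 of 10 hindlimb genes were lower. Over all genes 16.3% and 17.7% were higher in these comparisons, and 11.2% were lower in each. The mean of 6 skeletal muscle genes was 12.85 to 12.97 in KO diaphragm, against 13.06 to 13.09 on the arrays labelled WT diaphragm, 13.02 to 13.12 in KO gastrocnemius and 12.96 to 13.04 in WT gastrocnemius. *Myh7*, the myosin of slow fibers, rose by 1.41 against the arrays labelled WT diaphragm and by 1.29 against KO gastrocnemius. The part of fiber type, mesothelium and muscle of origin in the members' differences was not tested.

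For the members whose group means spanned at least 1, the genes with the most similar signal over the 12 arrays were listed as a description. For *Musk* these were *Mical2* (Pearson r = 0.967), *Ube2j1* (0.952) and *Atg2b* (0.951). *Mical2* averaged 7.98 in KO diaphragm, 9.66 on the arrays labelled WT diaphragm, 9.14 in KO gastrocnemius and 9.00 in WT gastrocnemius. For *Colq* they were *Fsd1l* (0.978), *Tec* (0.974) and *Sesn3* (0.972), and *Sesn3* averaged 8.48 in KO diaphragm, 7.33 on the arrays labelled WT diaphragm, 7.63 in KO gastrocnemius and 7.37 in WT gastrocnemius. The 12 points of each coefficient come from the same arrays and from 4 groups, and for these 6 genes, *Musk* and *Colq* the KO diaphragm mean lies at one end of the group means.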

How the data were processed

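Affymetrix mouse Gene 1.0 ST arrays (12 arrays, 3 per group) were hybridised with total RNA from diaphragm and gastrocnemius. Per the labels and the study's methods, the authors processed the scanner files with RMA sketch in Affymetrix Expression Console (version not given in the sources used here), which subtracts background, equalises the arrays and gives 1 value per transcript; the deposited values are on the log2 scale. They ranged from 1.65 to 14.4. RMA makes arrays comparable on the assumption that most genes do not differ, which can shift small differences between tissues. Arrays hold no read depth, and their number limits the precision.

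Of 35556 probe sets, 21789 carry 1 gene symbol, 1621 several and 12146 none listed; the brightest probe set with 1 symbol stood for each of 19938 genes. The comparison of groups used limma 3.58.1 (lmFit, eBayes; R 4.3.3) in 1 model with 4 group means, 8 residual and 6.18 prior degrees of freedom, and Benjamini-Hochberg adjustment over all genes, with calls at an adjusted p under 0.05. The model was checked on simulated data. The random replicate block used statmod 1.5.0. Members and lists were chosen with earlier results of these data known. Named genes were all 10 members, up to 6 called genes per other list and comparison by size (or 2 with the smallest p), the 3 genes most like members whose group means span at least 1, and *Cox6a2*, *Hoxc10*, *Upk3b*, *Myh4* and *Myh7*. *Gabpa*, *Etv4*, *Etv5*, *Lama5*, *Lamb2*, *Col13a1*, *Dag1*, *Mag* and *Sox10* were added after their values were seen. Promoter windows were taken from RefSeq (GRCm38.p6), which matched 6 of the 10 members; *Chrnd*, *Rapsn*, *Colq* and *Lrp4* are named only. Replicate numbers are shared between groups, but nothing says that they mark the same mouse, and the model has no block. Alternatives were the replicate block, the groups of a comparison alone, median centring, quantile normalization, eBayes with trend and robust, a filter on dim genes, the mean of all probe sets, the methods' t-test, and leaving out each array.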

Additional observations from a re-analysis of the deposited data

Results flagged for a closer look

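5 members differed between the muscles in their KO minus WT difference by the interaction test (limma, adjusted p under 0.05). *Musk* was at -1.90 and *Chrne* at -0.83, and *Colq* was at 0.91, *Chrnd* at 0.57 and *Lrp4* at 0.48 on the log2 scale. Over all genes 8.76% were called positive and 6.07% negative in this test. The call of *Lrp4* was lost in 14 of 19 alternatives and that of *Chrnd* in 8 of 18, and leaving out any 1 array removed at least 1 of the 5 calls. In gastrocnemius alone 0 of these 5 were called (limma; *Musk* at an unadjusted p of 0.026), where 0.592% of all genes were. The arrays labelled WT diaphragm enter each value, so that genotype and muscle of origin cannot be told apart in it.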

How the results depend on the processing

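The 15 called values of members kept their sign in 257 alternatives and stayed called in 229; 28 were not called, and 0 reversed. Of 35 values not called, 5 of 583 alternatives gave a call. Against the arrays labelled WT diaphragm, 5 members stayed called in KO diaphragm under the replicate block and without any 1 array, and the methods' t-test with adjustment called 3, losing *Chrne* and *Lrp4*. In KO diaphragm against KO gastrocnemius the methods' t-test with adjustment called 4, losing *Chrnd*, the replicate block called 5, and leaving the arrays labelled WT diaphragm out of the fit, a choice made after seeing the data, gave 5. The interaction called 3 members after median centring and 3 after quantile normalization, 4 under the replicate block (without *Lrp4*), and 3 to 4 when 1 array was left out; *Lrp4* lost its call in 10 of these and *Chrnd* in 6. The methods' t-test without adjustment called 1 member in gastrocnemius (*Colq*) and 2 between the arrays labelled WT diaphragm and WT gastrocnemius (*Musk* and *Rapsn*). In this last comparison the filter on dim genes called 1 (*Musk*), and leaving out 1 array called 0 to 1, the 1 being *Musk* without WT gastrocnemius replicate 2. The filter left 8 members, without *Chrnd* and *Chrng*. Apart from the scalings below, the share of all genes called under an alternative was not counted. Same-numbered arrays of different groups did not deviate together more than others (correlations of -0.10 to 0.16, against -0.23 to 0.17). These correlations cannot show whether a number marks the same mouse.

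Scaling moved the split of calls over all genes. Against the arrays labelled WT diaphragm 3258 were higher and 2238 lower in KO diaphragm, with 2812 and 2863 after quantile normalization and 2667 and 3836 after median centring. Against KO gastrocnemius the counts were 3535 and 2232, with 2798 and 2828, and 2389 and 4323, and the median of all genes was 0.02, -0.02 and -0.11. In the interaction they were 1747 and 1211, with 1507 and 1414, and 1225 and 2291. Under each scaling 3 members were higher and 2 lower in both KO diaphragm comparisons. The methods' t-test with adjustment called 8 other synapse genes in KO diaphragm against the arrays labelled WT diaphragm, where limma called 15, and 6 against KO gastrocnemius, where limma called 13; limma called 8 of them lower after either scaling in the first of these comparisons, against 5, and 7 in the second, against 4. The share of all genes called by the methods' t-test was not counted. In gastrocnemius 81 genes were higher and 37 lower, with 62 and 29 after quantile normalization and 188 and 29 after median centring. With 3 arrays per group and a median residual SD of 0.138, smaller differences may be missed.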
